A study of Rattus norvegicus with 12 samples.

Results

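The 34 genes described here mark the oligodendrocyte lineage and its myelin, and were taken from the table of 29009 genes as the rows whose symbol equals a name on the list. Each symbol occurred once, and all 34 were among the 19094 genes that passed the filter on low counts. They were grouped as 2 genes of precursors, 3 of committed cells and 29 of myelinating cells. The last group includes Olig1, Olig2 and Sox10, factors of the lineage that are not confined to myelinating cells. Tissue came from the medial prefrontal cortex (mPFC) of 12 adult male Sprague Dawley rats, whose age in weeks or months is not given in the sources used here, with 1 library per rat and 4 rats per group. CPA+RO rats (chronic PFC activation) carried an AAV8 for hM3D(Gq)-mCherry, an engineered excitatory receptor, behind the mCaMKIIa promoter of excitatory neurons, and after activation were injected daily with RO6958375, an oxytocin receptor agonist, at 0.07 mg/kg for 7 days. CPA+veh rats carried the same virus and were injected with vehicle instead. In control+veh the injected virus encoded only a fluorophore, and the rats received vehicle. What all 3 groups share is a virus injection into the mPFC and 10 days of clozapine-N-oxide (CNO), the hM3D(Gq) ligand, in drinking water at 2 mg/kg. The tissue was cut from brain slices that had first been used for electrophysiology, and the methods name no step that selects oligodendrocytes.

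Oligodendrocytes arise from precursors that carry the PDGF receptor alpha, pass through a short committed stage and then wrap axons in myelin, a stack of lipid-rich membrane. In the adult cortex precursors persist and continue to divide, and new myelin can be formed in response to neuronal activity. The genes fall into roles along this path. Pdgfra, the receptor itself, and Cspg4, the proteoglycan NG2, mark precursors. Gpr17, Bcas1 and Enpp6 mark cells that have left the precursor stage and begun to differentiate. The 29 myelinating genes comprise 5 transcription factors, 12 proteins of the myelin membrane or its contact with the axon, 7 enzymes or carriers of lipid and metabolism, and 5 others.

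Promoter windows were looked up in RefSeq (build GRCr8, which is not the build of the deposited files) by gene ID, and 26 of the 34 genes had one. The 250 bases before each annotated start were searched on both strands for ACAAAG, a core bound by SOX factors such as Sox10, for CAGCTG, an E-box of the kind bound by Olig factors, and for CTGGCAC or CTGGTAC, a motif of Myrf. The 22 myelinating genes with a window had 23 windows, since Mbp has 2 start sites. Of these 23 windows 8 held ACAAAG (34.8%), 6 held CAGCTG (26.1%) and 6 held the Myrf motif (26.1%). Both matches of Mbp lie before its inner start, which is inside the gene, and without that window the counts were 7, 5 and 6 of 22. Reads were counted per gene, so which of the 2 starts the Mbp RNA came from was not tested. Over all 33469 windows of the same length the shares were 16.3%, 11.97% and 5.48%. The windows of Pdgfra and Cspg4 held none of the 3 motifs. No 2 matches overlapped in these windows, and a match is a stretch of letters, not a measured binding site. The windows of 5 genes are shown because the results return to these genes: Opalin, Cnp and Mag, which hold the Myrf motif with other matches, Fa2h, the gene with the smallest p in the CPA+veh rats, and Pdgfra, the precursor receptor. Capitals mark the matches on either strand, and the sequences read 5′ to 3′ on the strand of the gene, given in parentheses.
Opalin chr1:249858191-249858440 (-): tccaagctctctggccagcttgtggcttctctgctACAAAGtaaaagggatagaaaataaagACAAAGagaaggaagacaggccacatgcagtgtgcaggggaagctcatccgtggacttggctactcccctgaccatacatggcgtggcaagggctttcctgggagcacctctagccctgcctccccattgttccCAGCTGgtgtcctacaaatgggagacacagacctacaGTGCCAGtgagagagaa
Cnp chr10:86011254-86011503 (+): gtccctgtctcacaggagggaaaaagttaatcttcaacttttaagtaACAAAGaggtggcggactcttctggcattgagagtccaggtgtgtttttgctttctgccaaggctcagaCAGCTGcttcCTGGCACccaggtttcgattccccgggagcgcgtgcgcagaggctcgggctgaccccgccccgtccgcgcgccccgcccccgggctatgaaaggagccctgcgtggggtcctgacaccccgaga
Mag chr1:95291045-95291294 (-): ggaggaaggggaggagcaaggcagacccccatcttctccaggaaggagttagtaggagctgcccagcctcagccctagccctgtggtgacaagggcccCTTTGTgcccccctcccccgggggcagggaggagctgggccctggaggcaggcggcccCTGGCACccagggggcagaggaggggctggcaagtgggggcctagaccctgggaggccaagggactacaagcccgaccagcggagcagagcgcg
Fa2h chr19:56273481-56273730 (-): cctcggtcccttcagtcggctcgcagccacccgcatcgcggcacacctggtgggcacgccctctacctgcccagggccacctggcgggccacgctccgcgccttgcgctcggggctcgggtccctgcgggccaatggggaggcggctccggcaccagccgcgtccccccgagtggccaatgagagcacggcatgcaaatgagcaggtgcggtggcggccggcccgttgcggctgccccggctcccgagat
Pdgfra chr14:33408517-33408766 (-): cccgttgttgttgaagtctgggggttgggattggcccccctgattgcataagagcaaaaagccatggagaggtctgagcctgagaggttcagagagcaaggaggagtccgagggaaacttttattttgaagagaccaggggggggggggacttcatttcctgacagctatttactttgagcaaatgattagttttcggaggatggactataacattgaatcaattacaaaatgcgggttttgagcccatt

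In Cnp the 3 motifs lay at 203 to 198 bases (ACAAAG), 134 to 129 bases (CAGCTG) and 124 to 118 bases (CTGGCAC) before the start. In Mag the Myrf motif lay 94 to 88 bases before the start, and in Opalin 17 to 11 bases before it. The same 3 motifs were also all present in the window of Hapln2, a link protein of the node of Ranvier. The window of Fa2h held none of them.

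The libraries held 64993543 to 79006972 counts, and the 34 genes had between 76 and 141402 counts each in a library. The lists of 12 excitatory and 10 inhibitory neuron markers had no gene at 0 counts in any library. Levels are given as CPM, counts relative to the library size scaled by TMM (the trimmed mean of M-values), and can be compared between rats but not between genes of different length. Per kilobase of gene model, as RPKM averaged over the 12 rats, Mbp was the most abundant of the 34 genes at 349 RPKM, and Gal3st1 the least at 0.524 RPKM. Qdpr (79.2 RPKM), Cnp (71.3 RPKM), Mobp (64.9 RPKM), Plekhb1 (61.3 RPKM) and Apod (50.0 RPKM) came next. Among the early genes Bcas1 was at 20.8 RPKM and Pdgfra at 10.8 RPKM, while Gpr17 was at 3.78 RPKM, Cspg4 at 2.77 RPKM and Enpp6 at 1.31 RPKM. The transcription factors ranged from 1.40 RPKM (Nkx6-2) to 23.9 RPKM (Olig1).

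CPA+veh was set against control+veh to ask what remained changed after chronic activation. No gene of the 34 passed an adjusted p of 0.05 in edgeR's quasi-likelihood test, in which 22 of 19094 genes (0.115%) did. In the same fit 15 of the 34 had an unadjusted p below 0.05 with a higher level in CPA+veh, where 4.99% of all genes did, and none had one with a lower level, where 4.94% did. DESeq2 called 1 of the 34 (Fa2h) and 115 of all genes, and limma-voom called none of the 34 and 19 of all genes. At an unadjusted p below 0.05 they had 14 and 13 of the 34, all higher. Of all genes 10.5% in DESeq2 and 9.79% in limma-voom were at that level in either direction. The fitted log2 fold change lay above 0 for 32 of the 34 genes and for 51.9% of all genes, and its median was 0.20 over the 34 and 0.01 over all genes. The 15 genes comprised 7 of the 12 myelin proteins, 3 of the 5 transcription factors, 3 of the 7 enzymes and 2 of the 5 others. None was grouped as precursor or committed, and the 3 transcription factors were Sox10, Olig1 and Nkx6-2. In bulk tissue, more cells of a type and more RNA per cell cannot be told apart.

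**Figure D1:**
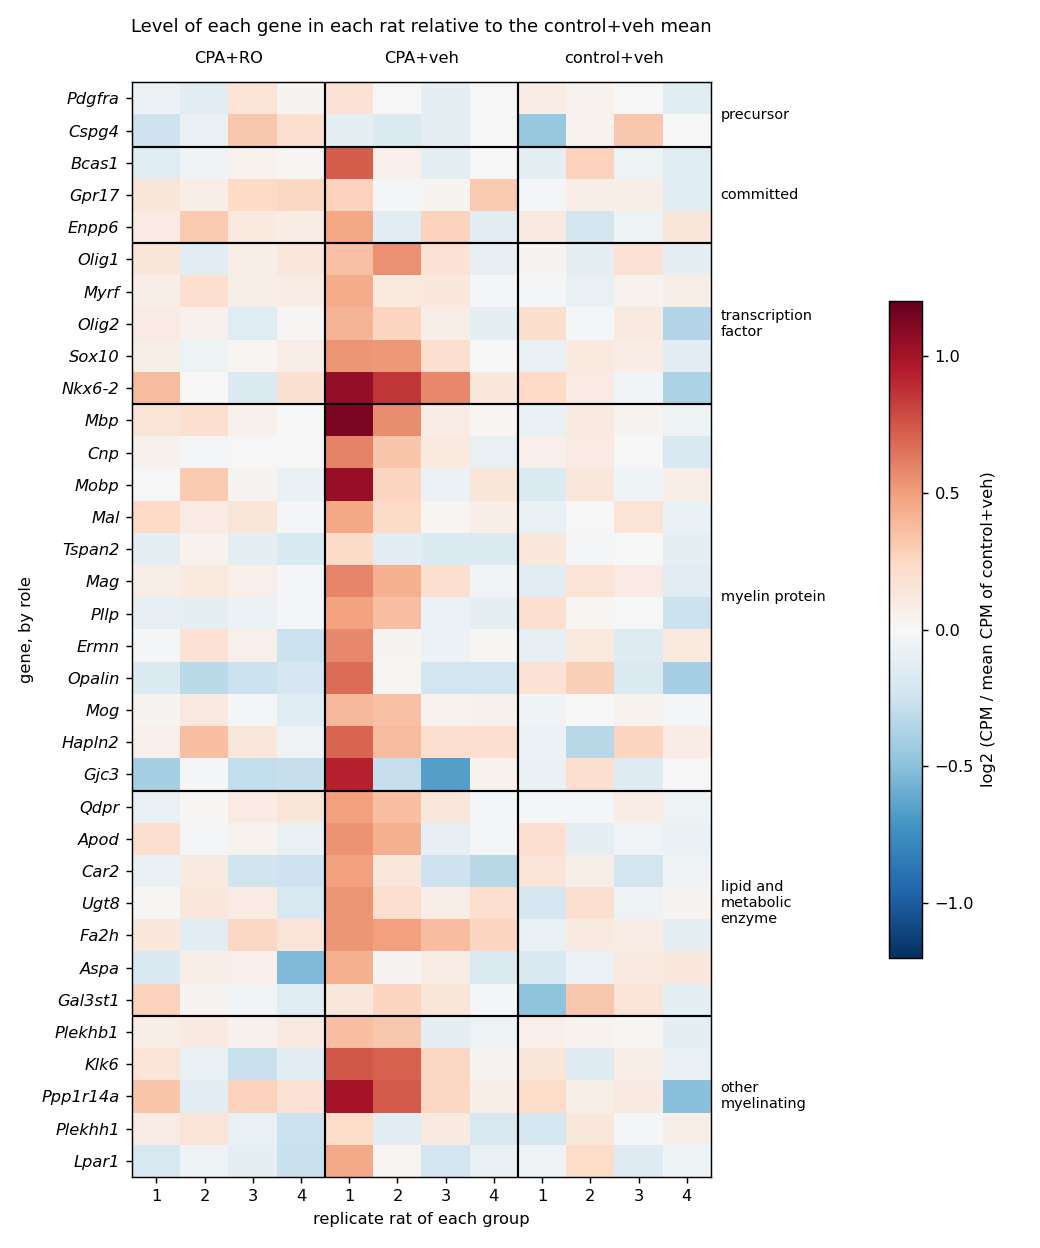
Heat map of the 34 genes (rows, grouped by role and ordered by RPKM) in each of the 12 rats (columns), as the log2 of CPM over the mean CPM of control+veh. Red is above and blue below that mean, and CPA+veh rats 1 and 2 stand out in the myelinating rows, with Mbp of rat 1 at 1.13 and of rat 2 at 0.55.

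The 2 precursor genes showed no common direction. Pdgfra was at 87.1, 76.7, 71.4 and 77.4 CPM in CPA+veh rats 1 to 4, against 82.1, 79.6, 77.5 and 69.6 CPM in control+veh rats 1 to 4. The groups overlapped, with a log2 fold change of 0.02 (SE 0.08, adjusted p = 0.958). Cspg4, which pericytes also express, was at 20.9, 20.0, 20.7 and 22.6 CPM in CPA+veh, against 16.4, 23.2, 28.2 and 22.4 CPM in control+veh. Its CPA+veh values all lay inside the control+veh range, and the log2 fold change was -0.10 (SE 0.14, adjusted p = 0.844). The 95% interval of the log2 fold change was -0.15 to 0.18 for Pdgfra and -0.41 to 0.21 for Cspg4.

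The 3 committed genes had log2 fold changes of 0.14 to 0.21, none called. Bcas1, expressed as oligodendrocytes start to myelinate, was at 92.9, 58.4, 51.8 and 56.4 CPM in CPA+veh, against 52.0, 67.9, 53.8 and 50.6 CPM in control+veh. CPA+veh rat 1 stood above every other rat, while rats 2 to 4 lay within the control+veh range. The log2 fold change of Bcas1 was 0.21 (SE 0.15, adjusted p = 0.656). Gpr17, an orphan receptor of the transition out of the precursor stage, was at 19.0, 15.5, 16.01 and 19.4 CPM in CPA+veh, against 15.4, 16.5, 16.5 and 14.1 CPM in control+veh. Rats 1 and 4 of CPA+veh were the high ones for this gene, and the log2 fold change was 0.16 (SE 0.09, adjusted p = 0.554). Enpp6, a choline-specific phosphodiesterase of newly forming oligodendrocytes, had a log2 fold change of 0.14 (SE 0.15, adjusted p = 0.764). Without CPA+veh rat 1 the median log2 fold change of the 3 genes was 0.02, against 0.16 with it.

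The transcription factors all had a positive log2 fold change, with a median of 0.26. Nkx6-2, a homeodomain factor of mature oligodendrocytes, was at 2.98, 2.61, 2.14 and 1.57 CPM in CPA+veh, against 1.70, 1.54, 1.41 and 1.10 CPM in control+veh. CPA+veh rats 1 to 3 lay above all 4 control+veh rats, and rat 4 lay inside their range. Its log2 fold change of 0.69 (SE 0.21, adjusted p = 0.31) was the highest of the 34 genes. Olig1, one of a pair of basic helix-loop-helix factors that specify the lineage, was at 60.3, 69.2, 53.3 and 44.4 CPM in CPA+veh, against 48.3, 43.9, 53.4 and 44.0 CPM in control+veh. It was the 1 gene of the 34 with its highest value in CPA+veh rat 2, and its log2 fold change was 0.26 (SE 0.12, adjusted p = 0.485). Sox10, which activates myelin genes, had a log2 fold change of 0.33 (SE 0.11, adjusted p = 0.383). Its partner Myrf, which switches on the myelinating programme, had 0.18 (SE 0.08, adjusted p = 0.508), and Olig2 had 0.17 (SE 0.13, adjusted p = 0.665).

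Of the 12 myelin proteins 11 had a log2 fold change above 0. Mbp, the basic protein that seals the cytoplasmic faces of compact myelin, was at 2221, 1488, 1078 and 1028 CPM in CPA+veh, against 950.2, 1091, 1039 and 971 CPM in control+veh. CPA+veh rat 1 was at 2.19 times and rat 2 at 1.47 times the control+veh mean, while rats 3 and 4 were at 1.06 and 1.01 times that mean, inside the control+veh range. The log2 fold change of Mbp was 0.52 (SE 0.18, adjusted p = 0.395). Mog, a surface protein of the outermost myelin layer, was at 41.1, 40.1, 32.27 and 32.6 CPM in CPA+veh, against 30.5, 31.6, 32.25 and 31.1 CPM in control+veh. It is 1 of 2 genes in which every CPA+veh rat lay above every control+veh rat, where 1.90% of all genes did so, with CPA+veh rats 3 and 4 just above the highest control+veh rat. The fitted log2 difference was 0.22 (SE 0.08, adjusted p = 0.433). Mag, the myelin protein facing the axon, had a log2 fold change of 0.31 (SE 0.11, adjusted p = 0.408), and Cnp, an enzyme that keeps cytoplasmic channels in myelin open, had 0.26 (SE 0.11, adjusted p = 0.475). Mobp, another compact-myelin protein, had 0.41 (SE 0.19, adjusted p = 0.488) and Hapln2 0.38 (SE 0.14, adjusted p = 0.415). Mal, a raft proteolipid, had 0.21 (SE 0.09, adjusted p = 0.482). The lowest was Tspan2, a tetraspanin, with -0.05 (SE 0.09, adjusted p = 0.869), and Opalin, Ermn, Pllp and Gjc3 lay between 0.11 and 0.19, each with an unadjusted p above 0.05.

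The lipid and metabolic genes all had a log2 fold change above 0, with a median of 0.24. Fa2h adds the hydroxyl group to the fatty acids of myelin galactolipids. It was at 8.32, 8.13, 7.46 and 6.90 CPM in CPA+veh, against 5.42, 6.23, 6.15 and 5.31 CPM in control+veh. The groups did not overlap, and in this gene rats 3 and 4 of CPA+veh were at 1.29 and 1.19 times the control+veh mean. The log2 fold change was 0.41 (SE 0.11, adjusted p = 0.271), the smallest p of the 34, and DESeq2 gave an adjusted p of 0.0364 for 0.41. Over the 29 other settings tried, the adjusted p of Fa2h ranged between 0.0364 and 0.613. Ugt8, which makes the galactolipid galactosylceramide, had a log2 fold change of 0.26 (SE 0.11, adjusted p = 0.457), whereas Gal3st1, which adds the sulfate to it, had 0.13 (SE 0.16, adjusted p = 0.803). Qdpr, a reductase that recycles tetrahydrobiopterin, was at 135, 123, 105 and 94.2 CPM in CPA+veh, against 94.8, 94.6, 101.5 and 91.8 CPM in control+veh. Rats 1 to 3 of CPA+veh lay above the control+veh range, and the log2 fold change was 0.26 (SE 0.09, adjusted p = 0.415). Aspa, which splits N-acetylaspartate, Car2, a carbonic anhydrase, and Apod, a lipid carrier, had log2 fold changes of 0.11, 0.05 and 0.24, each with an unadjusted p above 0.05.

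Among the 5 other genes Klk6, a secreted serine protease, was at 10.2, 10.0, 7.29 and 6.26 CPM in CPA+veh, against 6.75, 5.51, 6.48 and 5.75 CPM in control+veh. Rats 1 to 3 lay above the control+veh range, and the log2 fold change was 0.46 (SE 0.15, adjusted p = 0.372). Plekhb1, a membrane-bound pleckstrin homology protein, was at 183, 178, 132 and 137 CPM in CPA+veh, against 148, 147, 144 and 131 CPM in control+veh. Its rats 1 and 2 were high and its rats 3 and 4 lay inside the control+veh range, for a log2 fold change of 0.15 (SE 0.09, adjusted p = 0.611). Ppp1r14a, an inhibitor of myosin phosphatase, had a log2 fold change of 0.56 (SE 0.21, adjusted p = 0.424). Lpar1, a lysophosphatidic acid receptor, and Plekhh1 had 0.07 and 0.01.

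**Figure D2:**
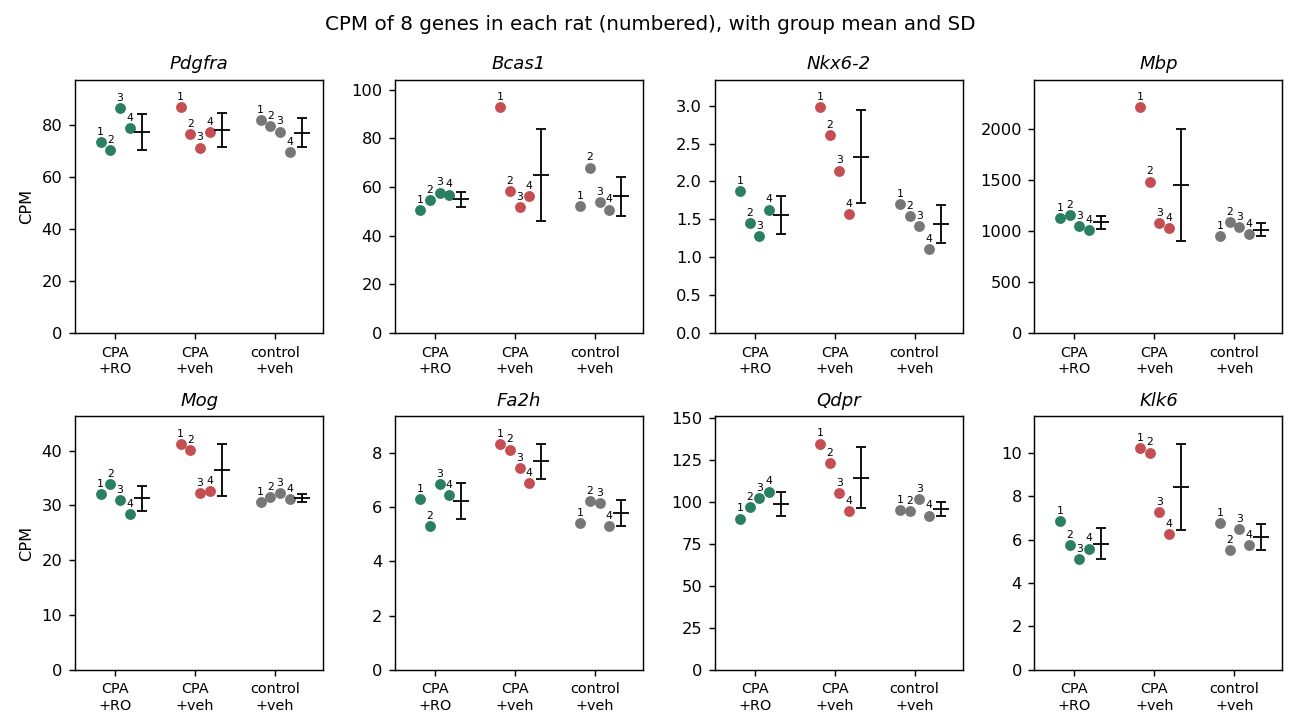
CPM (linear axis from 0) of 8 genes in each rat, numbered 1 to 4 within CPA+RO, CPA+veh and control+veh, with the group mean and SD as a horizontal bar with whiskers (n = 4). Mbp was at 2221 CPM in CPA+veh rat 1 and at 950.2 to 1091 CPM in control+veh, while Pdgfra spanned 71.4 to 87.1 CPM in CPA+veh and 69.6 to 82.1 CPM in control+veh.

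The rats of CPA+veh differed from each other more than those of the other groups. The coefficient of variation over 4 rats had a median over the 34 genes of 8.15% in CPA+RO, 18.1% in CPA+veh and 10.1% in control+veh, and it was largest in CPA+veh for 28 genes. CPA+veh rat 1 was the highest of the 12 rats for 30 of the 34 genes, and rats 1 and 2 were both above the other 10 rats for 16, all of them myelinating. The median level of the 29 myelinating genes, as log2 over the control+veh mean, was 0.53 in rat 1, 0.33 in rat 2, 0.09 in rat 3 and -0.01 in rat 4. In control+veh it ranged between -0.08 and 0.09. Rats 1 and 2 differed in the early genes. The 3 committed genes had a median level of 0.47 in rat 1 and -0.01 in rat 2, and the 2 precursor genes one of 0.05 in rat 1 and -0.08 in rat 2. Mobp was at 2.07 times the control+veh mean in rat 1 and 1.19 times in rat 2, and Gjc3, a connexin of the myelin sheath, was at 1.90 and 0.825 times. In Nkx6-2 (2.07 and 1.82 times), Klk6 (1.67 and 1.64 times) and Sox10 (1.44 and 1.44 times) the 2 rats were closer. Rat 3 lay inside the control+veh range for 19 of the 34 genes and above it for 11, and rat 4 lay inside it for 27 and above it for 5.

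The size of the difference moved most with rat 1. Without CPA+veh rat 1 the median log2 fold change of the 34 genes was 0.12, with 23 genes above 0, and 5 were higher and 1 lower at an unadjusted p below 0.05. Without rat 2 alone the median was 0.20, against 0.20 with all rats, and 12 genes were higher at that level. Rats 1 and 2 were also left out together because they were the highest, which by itself lowers the median. The median was then 0.04 with 19 genes above 0, and 1 gene was higher and 2 were lower at that level. The share of all genes at that level in either direction was 7.62% without rat 1, 8.67% without rat 2 and 7.85% without both. Leaving out any other rat gave medians of 0.19 to 0.27.

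CPA+veh rats 1 and 2 also stood apart in endothelial and microglia markers, and rat 1 in astrocyte markers. Over all genes, 4.99% were higher and 4.94% lower in CPA+veh against control+veh at an unadjusted p below 0.05. For 13 endothelial and pericyte markers, of which 6 were lower in CPA+veh at an unadjusted p below 0.05, the median level was -0.59, -0.67, -0.14 and -0.05 in CPA+veh rats 1 to 4, and their summed level was 155 to 244 CPM in CPA+veh and 212 to 274 CPM in control+veh. For 12 microglia markers the median level was 0.40, 0.43, -0.07 and -0.06, with a summed level of 330 to 415 CPM in CPA+veh, against 316 to 377 CPM in control+veh, and 1 marker higher at that level. For the 12 astrocyte markers it was 0.48, 0.05, 0.00 and 0.04, with a summed level of 4309 to 6093 CPM in CPA+veh, against 3835 to 4459 CPM in control+veh, and 3 markers higher. Of 12 excitatory neuron markers 5 were higher in CPA+veh at that level, with a median level of 0.08, -0.04, 0.20 and 0.10 in CPA+veh rats 1 to 4, and a summed level of 4189 to 4928 CPM in CPA+veh, against 3821 to 4277 CPM in control+veh. Of 10 inhibitory neuron markers 2 were higher, with a median level of 0.15, 0.20, 0.10 and 0.10 in CPA+veh, against -0.03 to 0.03 in control+veh, and a summed level of 1305 to 1361 CPM in CPA+veh, against 1217 to 1268 CPM in control+veh. The inhibitory level of each CPA+veh rat was thus above that of each control+veh rat. The same held for each CPA+RO rat, at 0.06 to 0.16. The excitatory level of each CPA+RO rat (0.10 to 0.21) also lay above that of each control+veh rat (-0.03 to 0.06). In CPA+RO against control+veh 3 excitatory and 2 inhibitory markers were higher at that level, where 2.78% of all genes were. None of these markers was at 0 counts in any library, and none was called in any comparison. Over the 12 libraries, which share tissue, depth and scaling, Pearson's r with the median level of the myelinating genes was 0.85 for astrocyte, 0.82 for microglia and -0.85 for endothelial and pericyte markers, with 0.57 for inhibitory and -0.05 for excitatory neuron markers. Over all tested genes Spearman's correlation of gene length with the deviation of a library was 0.00 to 0.15 in CPA+RO, -0.20, -0.40, 0.08 and 0.21 in CPA+veh rats 1 to 4, and -0.20, 0.12, 0.01 and 0.18 in control+veh rats 1 to 4. Over the 12 libraries Pearson's r of this length correlation with the median myelinating level was -0.65, and -0.60 after subtraction of each group's mean. The median myelinating level was -0.03 in control+veh rat 1, 0.53 in CPA+veh rat 1 and 0.33 in CPA+veh rat 2. The length correlations of these rats were -0.20, -0.20 and -0.40. Over the 34 genes Spearman's correlation of length with the log2 ratio to the control+veh mean was -0.45 in rat 1 and -0.54 in rat 2. With the length trend removed from each library the median log2 fold change was 0.18 and 16 of the 34 genes were higher at an unadjusted p below 0.05. In that fit 11.3% of all genes were at that level in either direction. The parts of gene length and of other cell types in the result were not tested, and the 2 cohorts in which the rats were run cannot be tied to libraries.

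**Figure D3:**
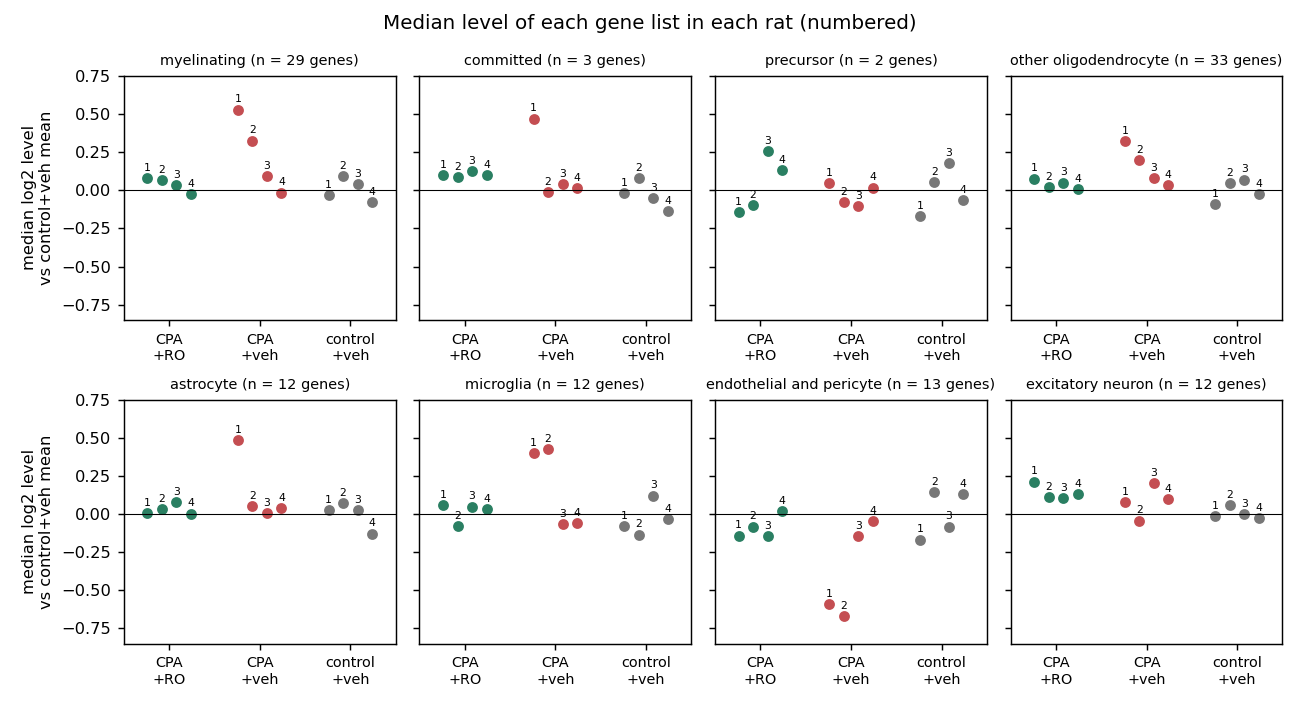
Median log2 level of 8 gene lists, relative to the control+veh mean of each gene, in each rat (numbered) of CPA+RO, CPA+veh and control+veh. In CPA+veh rats 1 and 2 the myelinating genes (0.53 and 0.33) and microglia markers (0.40 and 0.43) were above the other rats and the endothelial and pericyte markers (-0.59 and -0.67) below them, while the precursor genes (0.05 and -0.08) stayed among them.

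The comparison of CPA+RO with CPA+veh asks whether the agonist altered the state after activation, and it uses the same CPA+veh rats. No gene of the 34 passed an adjusted p of 0.05 in edgeR, where 0% of all genes did, and DESeq2 and limma-voom called none of the 34 either. At an unadjusted p below 0.05, 10 of the 34 were lower in CPA+RO, where 2.58% of all genes were, and none was higher, where 1.83% were. DESeq2 had 10 and limma-voom 6 at that level, all lower. Of all genes 4.75% in DESeq2 and 4.33% in limma-voom were at that level in either direction. Only 3 of the 34 had a log2 fold change above 0 (Cspg4, Gpr17 and Enpp6), against 48.0% of all genes. The median was -0.22 over the 34 genes, -0.23 over the 29 myelinating genes and -0.01 over all genes.

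Klk6 was at 6.84, 5.76, 5.10 and 5.59 CPM in CPA+RO rats 1 to 4, a log2 fold change of -0.54 (SE 0.15, adjusted p = 0.876) against the CPA+veh values given above. Fa2h was at 6.30, 5.30, 6.86 and 6.44 CPM in CPA+RO, and it was the 1 gene of the 34 in which every CPA+RO rat lay below every CPA+veh rat, where 1.04% of all genes did so. Its log2 fold change was -0.31 (SE 0.11, adjusted p = 0.876). Nkx6-2 was at 1.87, 1.45, 1.28 and 1.63 CPM in CPA+RO and overlapped with CPA+veh through rat 4 of CPA+veh, with a log2 fold change of -0.58 (SE 0.21, adjusted p = 0.876). Mbp was at 1129, 1155, 1053 and 1009.8 CPM in CPA+RO, where all 4 rats lay near CPA+veh rats 3 and 4. The log2 fold change of Mbp was -0.42 (SE 0.18, adjusted p = 0.876). Mog was at 32.0, 33.9, 30.9 and 28.4 CPM in CPA+RO, with a log2 fold change of -0.22 (SE 0.08, adjusted p = 0.876), and Qdpr was at 89.9, 96.9, 102 and 106 CPM, with -0.21 (SE 0.09, adjusted p = 0.876). Sox10, Mag, Cnp and Ugt8, the other genes with an unadjusted p below 0.05, had log2 fold changes between -0.30 and -0.24 and an adjusted p of 0.876.

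The precursor and committed genes had no common direction in this comparison. Pdgfra was at 73.6, 70.5, 86.6 and 78.996 CPM in CPA+RO, with a log2 fold change of -0.01 (SE 0.08, adjusted p = 0.977). Cspg4 was at 19.0, 21.2, 28.1 and 25.9 CPM in CPA+RO, with rats 3 and 4 above every CPA+veh rat and a log2 fold change of 0.16 (SE 0.14, adjusted p = 0.876). Gpr17, at 17.3, 16.6, 18.4 and 18.6 CPM in CPA+RO, had 0.02 (SE 0.09, adjusted p = 0.97), and Bcas1, at 50.6, 54.5, 57.7 and 56.8 CPM, had -0.24 (SE 0.15, adjusted p = 0.876). Whether the precursor and committed genes differed from the myelinating genes in their response was not tested.

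The median of -0.22 also moved with single CPA+veh rats. It was -0.09 without CPA+veh rat 1, with 12 of the 34 genes above 0, and 0.02 without rats 1 and 2, left out because they were the highest, with 20 above 0. The number of genes lower at an unadjusted p below 0.05, 10 with all rats, was 2 without CPA+veh rat 1, 4 without rat 2 and 18 without rat 3. It was 5 without CPA+RO rat 1 and 5 without CPA+RO rat 4. The share of all genes at that level in either direction also moved. This share was 3.14% without CPA+veh rat 1, 3.24% without rat 2 and 7.35% without rat 3. Without CPA+RO rat 1 it was 4.50%, and without CPA+RO rat 4 it was 4.19%.

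**Figure D4:**
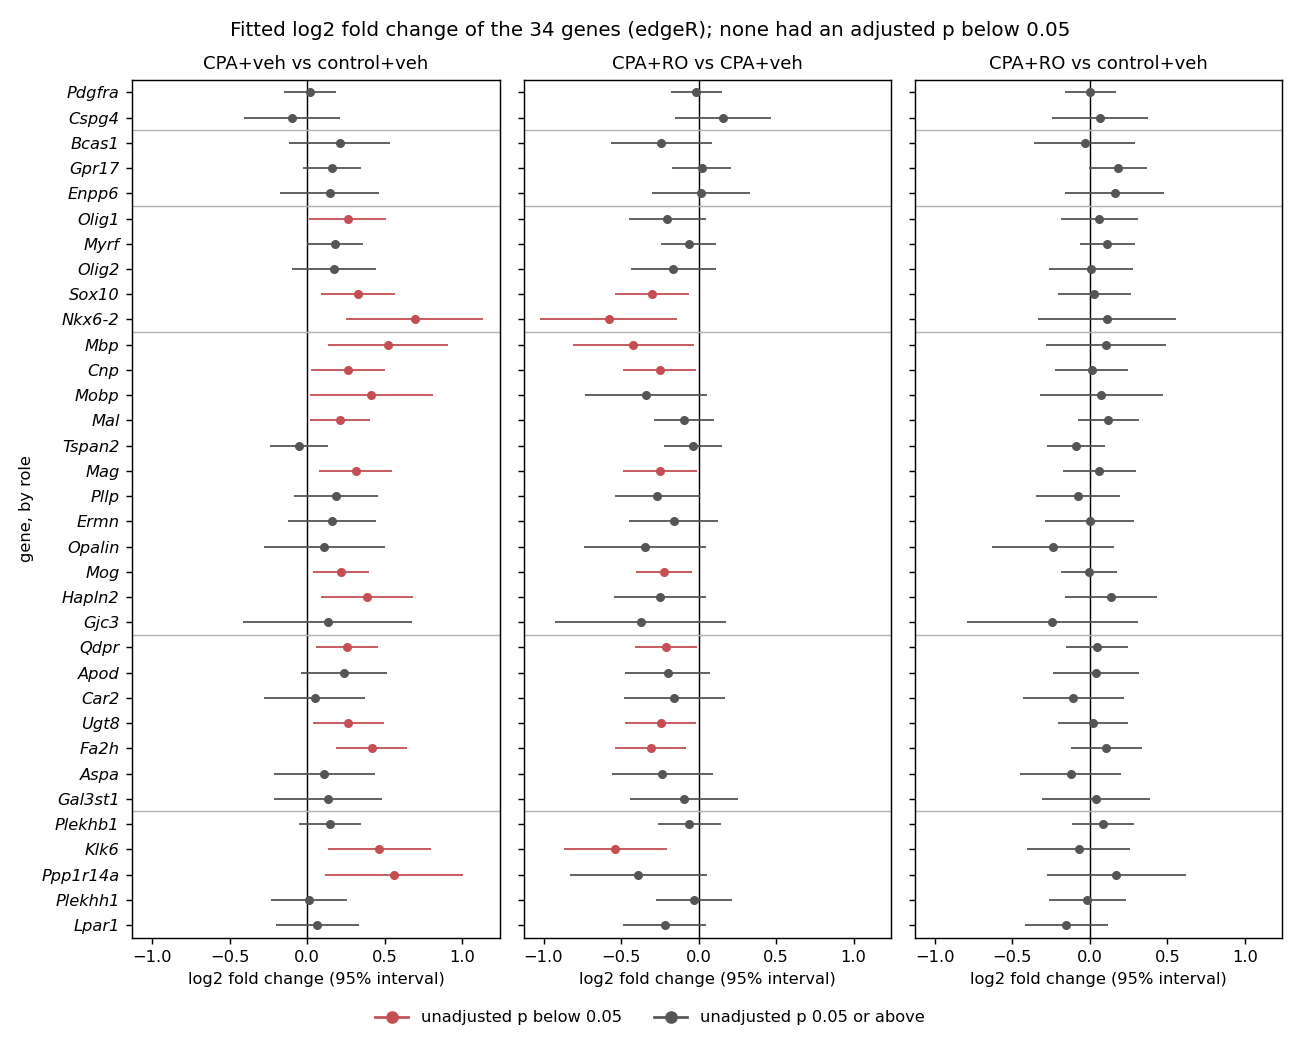
Fitted log2 fold change (points) with its 95% interval (lines) for each of the 34 genes, ordered by role from precursor at the top, in the 3 comparisons. Red marks an unadjusted p below 0.05, which 15 genes had for CPA+veh against control+veh, 10 for CPA+RO against CPA+veh and none for CPA+RO against control+veh, and no adjusted p was below 0.05.

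Between CPA+RO and control+veh the 34 genes lay on both sides of the control level. None passed an adjusted p of 0.05 in edgeR, where 0.110% of all genes did, and DESeq2 and limma-voom called none. None had an unadjusted p below 0.05 in either direction in edgeR, DESeq2 or limma-voom, where in edgeR 2.78% of all genes were higher and 2.97% lower at that level. The log2 fold change was above 0 for 22 of the 34 genes and for 50.0% of all genes, with a median of 0.03 over the 34 and 0.00 over all genes. Single rats left out gave medians between 0.01 (without control+veh rat 4) and 0.05 (without control+veh rat 3). The intervals were not narrow: the 95% interval of Mbp was -0.29 to 0.49 around 0.10, and that of Nkx6-2 was -0.33 to 0.56 around 0.11. In 2 genes, Gpr17 and Myrf, every CPA+RO rat lay above every control+veh rat, where 2.83% of all genes did so. Gpr17 had the 4 CPA+RO values given above, against 15.4, 16.5, 16.5 and 14.1 CPM in control+veh, for a log2 fold change of 0.18 (SE 0.09, adjusted p = 0.879). Myrf was at 40.2, 43.8, 39.9 and 40.5 CPM in CPA+RO, against 37.5, 35.7, 39.2 and 39.8 CPM in control+veh, for 0.11 (SE 0.08, adjusted p = 0.903). Over the 34 genes the median level, as log2 over the control+veh mean, ranged between -0.01 and 0.08 over the 4 CPA+RO rats and between -0.08 and 0.08 over the 4 control+veh rats, so the groups overlapped. Since CPA+veh enters the first 2 comparisons and control+veh the first and the third, their values are not independent of each other.

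The myelinating genes varied together across the libraries. Over the 12 rats, which share tissue, depth and scaling, Pearson's r of log2 CPM had a median of 0.62 over the 406 pairs of myelinating genes, and 402 pairs were positive. Within groups, after subtraction of each group's mean, the median was 0.60. Between the 3 committed and the 29 myelinating genes the median r was 0.32 over 87 pairs, and between the 2 precursor and the myelinating genes it was 0.05 over 58 pairs. The precursor level as a whole had r = -0.01 with the myelinating level, and the committed level 0.74. The genes within these sets differed in r with the mean of the myelinating genes. It was 0.42 for Pdgfra and -0.24 for Cspg4, and 0.82 for Bcas1, 0.24 for Gpr17 and 0.36 for Enpp6. Among all other tested genes, those whose log2 CPM was most like the mean of the myelinating genes over the 12 libraries included Gna12 (r = 0.97), a G protein alpha subunit, Sirt2 (r = 0.96), a deacetylase abundant in myelin, Csrp1 (r = 0.95), a LIM domain protein, and Fads1 (r = 0.95), a fatty acid desaturase. The lowest of the 10 highest values was 0.94 (Fam89b).

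Further genes of the pathway were taken from 3 lists. Of 33 tested genes on a list of other oligodendrocyte genes, none was called in any comparison, 5 were higher and none lower in CPA+veh against control+veh at an unadjusted p below 0.05, and 5 were lower and none higher in CPA+RO against CPA+veh. In CPA+RO against control+veh 2 were higher and none lower. Over all genes 4.99% were higher in CPA+veh against control+veh, 2.58% lower in CPA+RO against CPA+veh and 2.78% higher in CPA+RO against control+veh at that level. The median log2 fold change of this list was 0.14, -0.11 and 0.01 in the 3 comparisons, and Cldn11, the claudin of myelin tight junctions, had 0.29 in CPA+veh against control+veh (SE 0.10, adjusted p = 0.396). Of 15 tested further genes of precursors and committed cells, none was called or had an unadjusted p below 0.05 in any comparison, with medians of 0.06 in CPA+veh against control+veh and 0.04 in CPA+RO against CPA+veh. In CPA+RO against control+veh their median was 0.08, with 14 of the 15 above 0, against 50.0% of all genes. Of 21 genes of signalling between axon and myelin, none was called, 3 were higher and none lower in CPA+veh against control+veh at an unadjusted p below 0.05, 2 were higher and none lower in CPA+RO against control+veh, and none had an unadjusted p below 0.05 in CPA+RO against CPA+veh.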

How the data were processed

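Poly(A) RNA of mPFC tissue was sequenced with the TruSeq Stranded mRNA kit. Tissue was taken 8 to 16 days after the last CNO. The authors deposited raw counts per gene and library, and RPKM made from them. STAR, SAMtools, bcl2fastq, FastQC and the builds rn6 and Rnor_6.0 are named in the submitters' processing notes. Which counter, strand setting and annotation were used was not given in the sources used here. Even values made up 92.7% of the counts from 1 to 9, as they would where each mate of a read pair is counted, so fragments are fewer than counts. Without a stated strand setting, overlapping and antisense genes cannot be separated.

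Counts were tested with edgeR 4.0.16 in R 4.3.3 (TMM, filterByExpr with a minimum of 10 counts, quasi-likelihood test, 12 libraries in 1 fit with group as the only term), with Benjamini-Hochberg adjustment over 19094 genes per comparison and a threshold of 0.05. The study's own test was a one-way ANOVA on expression values with post hoc comparisons. Replicates are separate rats. The log2 CPM of correlations used a prior count of 2. Gene lengths are the ratio of counts to RPKM. The median level of a list in a rat is the median over its genes of log2 CPM minus the control+veh mean. The steps were tested on simulated data. Figures were drawn with matplotlib 3.10.9.

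Members, roles and lists were chosen with earlier results of these data known. Values per rat are given for the gene of smallest p in CPA+veh against control+veh and the gene of highest RPKM in each role, and similar genes are the 10 of highest r. Mog, Myrf and Cldn11 were added after their values were seen.

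Alternatives tried were DESeq2 1.42.0, limma-voom (limma 3.58.1) with and without sample quality weights, scaling by RLE or the upper quartile, a fit of all genes, a minimum of 1 CPM in 4 libraries, a fit of the compared groups alone, robust estimation, a replicate block, a length correction with and without it, log2 RPKM with pseudocounts of 0.1 and 1, other thresholds, and each library left out. Leaving out CPA+veh rats 1 and 2 together and halving the counts were chosen after seeing the data. The 12 rats were run in 2 cohorts, and nothing ties a library to a cohort or day, so no batch term was fitted.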

Additional observations from a re-analysis of the deposited data

Results flagged for a closer look

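In groups of 4 rats, a sample was listed when its gap to the nearest other rat, as a share of the range of the group, exceeded the 95% critical value of Dixon's test. Over 102 such groups (34 genes in 3 groups of rats) 5 passed, and chance alone gives about 5%. In CPA+veh, rat 1 stood above the other 3 rats in Tspan2 (0.914 of the range), Ermn (0.876) and Bcas1 (0.839). In the median of the 3 committed genes CPA+veh showed the same rat, with 0.899 of the range. In CPA+RO, rat 2 stood above the others in Enpp6 (0.882) and Myrf (0.856). No control+veh rat and no lowest value passed.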

How the results depend on the processing

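None of the 34 genes was called in any comparison under any setting at an adjusted p of 0.05, except 1 (Fa2h) by DESeq2 in CPA+veh against control+veh. At an unadjusted p below 0.05, 15 were past the threshold in CPA+veh against control+veh and 10 in CPA+RO against CPA+veh. Without CPA+veh rats 1 and 2, chosen after seeing the data, the median log2 fold change of the 34 was 0.043 in CPA+veh against control+veh and 0.017 in CPA+RO against CPA+veh, where the sign of 17 genes turned. With each library left out in turn the median ranged between 0.12 and 0.27 in CPA+veh against control+veh, between -0.28 and -0.09 in CPA+RO against CPA+veh, and between 0.01 and 0.05 in CPA+RO against control+veh, with 0 of the 34 called each time. The replicate block gave medians of 0.19, -0.21 and 0.04, with 0 of the 34 called in each and 14, 10 and 0 at an unadjusted p below 0.05, and changed no call. Of all genes 9.95%, 4.72% and 5.31% were at that level in either direction with the block. Deviations of rats with the same number correlated at -0.11 to 0.10, which shows no strong shared deviation. Whether the numbers pair the rats by cohort or day is not known. With sample quality weights 8 and 4 of the 34 were at an unadjusted p below 0.05 in the first 2 comparisons, with medians of 0.15 and -0.16. Of all genes 7.93% and 3.08% were at that level in either direction with these weights. Over all genes, 115 were called in CPA+veh against control+veh by DESeq2, 5 with sample quality weights, 12 with the CPM filter and 14 without CPA+veh rats 1 and 2, against 22 in edgeR. In CPA+RO against control+veh DESeq2 called 82, no filter 48, quality weights 33, only the 2 groups 32 and the CPM filter 13, against 21 in edgeR. In CPA+RO against CPA+veh a fit of only the 2 groups called 1 gene, against 0. With 4 rats per group, 1 rat moved the medians above. Gjc3, Ppp1r14a and Nkx6-2 had the widest intervals in each comparison. Width did not follow RPKM alone: in CPA+veh against control+veh the SE was 0.18 for Mbp, the highest, and 0.16 for Gal3st1, the lowest. By counts the order differs: Gal3st1 had 148 to 284 counts in a library, and Nkx6-2, with an SE of 0.21, had 76 to 196.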
